A study of Prunus persica with 2 samples.

Results

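Read assembly in wounded peach fruit placed 296 spliced loci outside every annotated gene of the tables. These loci were chosen from the 933 newly assembled loci among 27806 gene rows. A locus was taken when at least 1 of its transcripts had 2 or more exons and when its span, from lowest start to highest end, met no annotated transcript on either strand. No expression level entered this choice, although 929 of the 933 new loci reach 1 FPKM in at least 1 library. The tested wounds had received 30 μL of a suspension of Pichia membranaefaciens, a yeast studied for biological control of fruit rot, and the control wounds 30 μL of sterilized water. Fruit of Prunus persica stood at 28 °C and 95% relative humidity, and wound tissue was taken on day 3. Each treatment gave 1 library, of about 25100000 fragments with the yeast and 26800000 in the control, so no value below has a replicate error, and differences are given without a test. No source used here gives the number of fruit behind a library or the cultivar, and the tissue label was not checked against marker genes because the tables hold no product names.

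A gene annotation is a model of where genes lie, and transcripts that its evidence missed can be recovered by joining overlapping reads into exons. A read that crosses a splice junction marks an intron that was removed from RNA, which unspliced background such as genomic DNA does not give. Unannotated spliced loci can be missed protein-coding genes, transcribed pseudogenes or long non-coding RNAs, which are long transcripts without a long reading frame. Plant long non-coding RNAs are usually spliced into few exons and weakly expressed, and a small number of them have known roles, among them the control of flowering by cold and the sequestering of a microRNA during phosphate starvation in Arabidopsis.

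The label of the loci held on the tables, with several limits. All 296 carry a strand, 140 the plus and 156 the minus strand. Of the 933 new loci, 308 have no strand listed, and 0 of these are spliced. At 11 of the 296, however, the locus overlaps another new transcript that the tables assign to an annotated gene by identifier or name, so that it lies within the assembled extension of an annotated gene although outside the annotated model. In all, 31 loci overlap some other new transcript, 25 of them on the opposite strand and 11 on the same strand, with loci that do both counted in each. No source used here says whether the libraries distinguished the strands. The 296 loci hold 392 transcripts. In 10 loci a single-exon transcript is listed beside the spliced one, and in 56 both libraries had fewer than 30 fragments.

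A separate annotation has genes at most of these loci. RefSeq places genes on the Prunus_persica_NCBIv2 assembly, and its coordinates were compared with those of the tables before use, since the tables name no build. On each of the 8 pseudomolecules (Pp01 to Pp08), between 33.7% and 36.9% of annotated genes had a RefSeq gene start within 50 bases of their own start. After shifting the genes by 5000 bases, between 1.09% and 1.87% did. The RefSeq table gives no strand, so an overlap may be with a gene on the other strand. Whole spans with their introns were compared, not exons, so an overlap may also lie within an intron. Of the 291 new spliced loci on pseudomolecules, 245 (84.2%) overlapped a RefSeq gene and 46 (15.8%) did not. The remaining 5 loci lie on unplaced scaffolds and could not be compared.

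Long non-coding RNA genes were the largest RefSeq class at these loci. Taking the RefSeq gene with the longest overlap, 140 loci (48.1%) met a long non-coding RNA gene, 87 (29.9%) a protein-coding gene, 13 (4.47%) a pseudogene and 5 (1.72%) a transcribed pseudogene. Of 26811 annotated genes on the same pseudomolecules, 717 (2.67%) met a long non-coding RNA gene and 22155 (82.6%) a protein-coding one. The 424 new loci outside annotated genes with a single exon met any RefSeq gene in 127 cases (29.95%). Single-exon new loci had a median span of 681 bases, against 2305 bases in the new spliced loci. A longer span can meet a gene more easily, and the shares are not adjusted for this. Spliced new loci that overlap annotated transcripts met one in 183 of 188 cases, mostly protein-coding genes (137). The rule leaves out loci that meet annotated transcripts, and most RefSeq protein-coding genes meet such transcripts. Outside annotated transcripts lie 1650 of 22988 protein-coding and 628 of 1421 long non-coding RNA genes of RefSeq. The contrast with annotated genes and with overlapping loci therefore follows in part from the rule. These shares are set side by side with no test, and the coding capacity of the new transcripts was not examined, since no sequence was at hand.

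**Figure D1:**
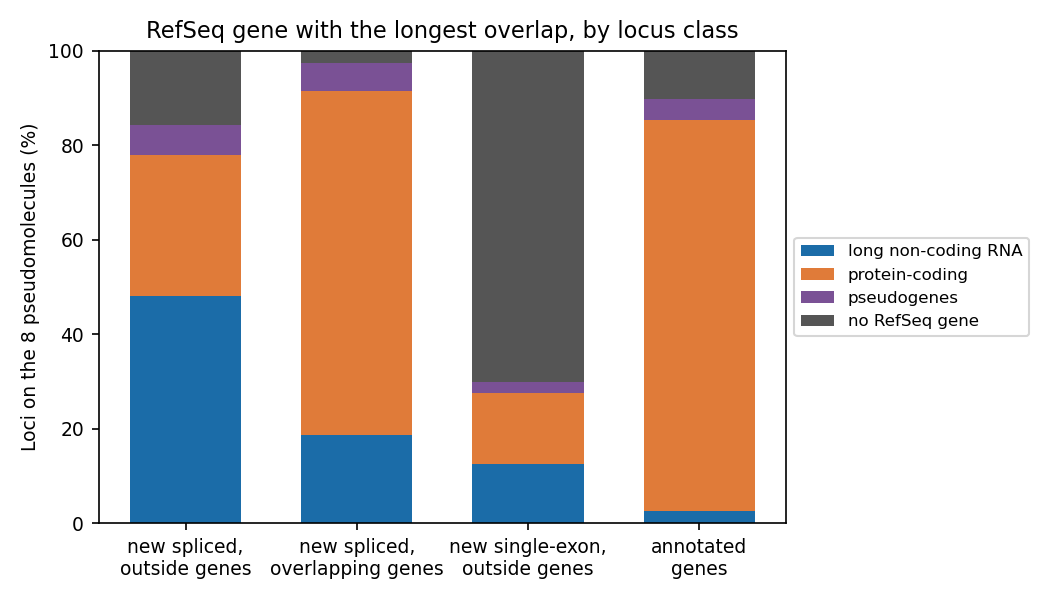
Share of loci on the 8 pseudomolecules by the class of the RefSeq gene with the longest overlap, as stacked bars from 0 to 100% for 4 classes of locus. Pseudogenes include transcribed ones. The new spliced loci outside genes are at 48.1% long non-coding RNA and 15.8% without a RefSeq gene. Annotated genes are at 82.6% protein-coding, and the new spliced loci outside genes were chosen not to overlap them. The 6 annotated genes over other RefSeq classes are not drawn.

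The overlaps mostly took in the greater part of the locus, with a median of 99.94% of its span. At least 50% of the locus span was covered in 224 of the 245 cases, and 120 loci lay wholly inside their RefSeq gene. At least 50% of both spans was shared in 167 cases. An end of the locus lay within 50 bases of an end of the RefSeq gene in 141 cases, and both ends did in 40, of which 31 were long non-coding RNA genes. The match was closest for these genes, where the locus covered a median of 94.99% of the RefSeq gene, and looser for protein-coding genes with a median of 81.2% and for pseudogenes with 57.9%. At 40 loci the RefSeq gene also held an annotated gene, on a strand that the table does not give. This was so for 32 of the 87 protein-coding matches and to 3 of the 140 long non-coding ones.

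Seen from RefSeq, the spans of the new loci overlapped a minor part of the genes that lie outside annotated transcripts. RefSeq has 628 long non-coding RNA genes on the pseudomolecules that meet no annotated transcript, and 142 of them (22.6%) met a new spliced locus. A further 33 met only a single-exon new locus, and 453 met neither. Among 1650 protein-coding RefSeq genes outside annotated transcripts, 58 (3.52%) met a new spliced locus. No locus (0) met any of 365 transfer RNA genes outside annotated transcripts.

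In structure the loci were short and held few exons. Of the 296, 140 (47.3%) had 2 exons, 60 had 3, 32 had 4, and 64 had 5 or more, with 11 as the highest number. Among the 12768 annotated spliced genes that reached 1 FPKM (fragments per exon length, scaled to library depth) in at least 1 library, 12.99% had 2 exons. The longest transcript of a locus had a median of 991 bases, with quartiles of 627 and 1778 bases, compared with a median of 1950 bases in those annotated genes. Introns went the other way. The mean intron of the leading spliced transcript had a median of 403 bases and an upper quartile of 903 bases, compared with 321 and 513 bases in annotated genes. At 13 loci the mean intron was 5000 bases or longer.

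**Figure D2:**
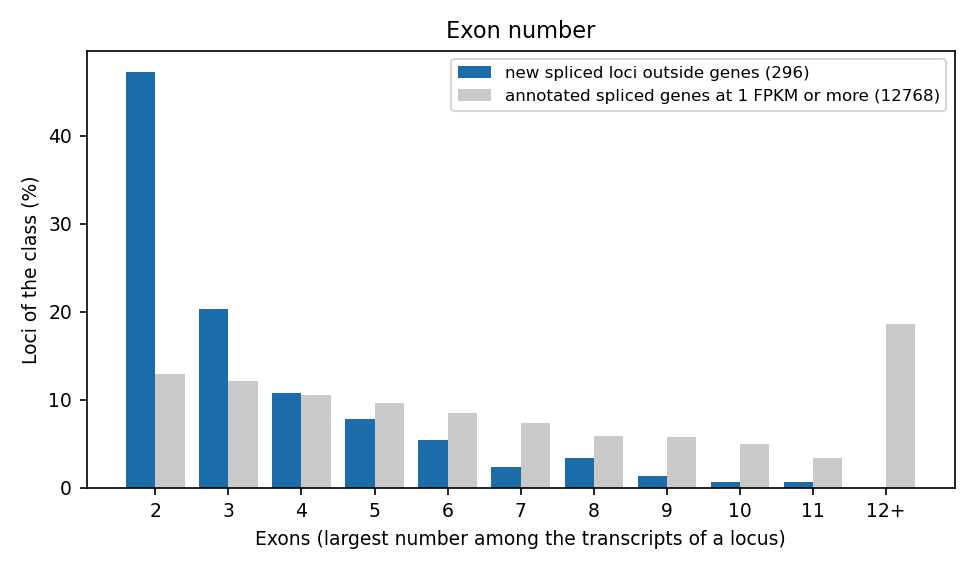
Percentage of loci by exon number, for the 296 new spliced loci (blue, left) and the 12768 annotated spliced genes at 1 FPKM or more in at least 1 library (grey, right). Loci with 2 exons are 47.3% of the new loci and 12.99% of the annotated genes, and no new locus has 12 or more exons.

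The structure differed with the RefSeq class. Loci over protein-coding genes had a median longest transcript of 1342 bases and a median mean intron of 484 bases, and those over long non-coding RNA genes 783 and 420 bases. Loci with no RefSeq gene were the shortest class on the pseudomolecules, with a median of 660 bases, and 33 of these 46 (71.7%) had 2 exons. Over long non-coding RNA genes, 65 of 140 (46.4%) had 2 exons.

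The loci with the most exons included long non-coding RNA, pseudogene and protein-coding matches. There were 2 with 11 exons, 2 with 10 and 4 with 9, and of the last the first by identifier is described. MSTRG.3134, at 42200745 to 42208407 of Pp01 (minus strand), had 11 exons in 3 transcripts and covered the whole of LOC109946508, a long non-coding RNA gene. It had 14.0 FPKM in the yeast library and 13.1 FPKM in the control library. MSTRG.13784, also with 11 exons, on the minus strand of Pp07 from 17926693 to 17931493, met the pseudogene LOC18771196 with 1.76 FPKM in the yeast and 0.913 FPKM in the control library. The difference was 0.53 on the log2(FPKM + 1) scale. MSTRG.128, of 10 exons on Pp01 from 1374770 to 1377660, matched both ends of the long non-coding RNA gene LOC18792898 and had 6.92 FPKM with the yeast and 5.40 FPKM in the control. MSTRG.4109, of 10 exons on Pp02 from 12653430 to 12658786, lay within the pseudogene LOC18787797, at 5.27 FPKM with the yeast and 4.56 FPKM in the control. MSTRG.10907, of 9 exons on Pp06 from 4536113 to 4542156, covered the protein-coding gene LOC109950033 and had 2.98 FPKM in the yeast library and 2.59 FPKM in the control library. All 5 were below the threshold used for differences.

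The longest spans rested on very long introns. MSTRG.4085, on the plus strand of Pp02 from 11827689 to 11858461, has an intron of 30523 bases between exons that sum to 250 bases. It rested on about 10 fragments (1.64 FPKM) in the yeast library and 8 fragments (1.24 FPKM) in the control library. With so few fragments, its structure and its level are weakly determined. MSTRG.8998, the most remote locus, lies on the minus strand of Pp04 from 25808726 to 25829005, with 294216 bases to the nearest annotated gene, and had 1.16 FPKM in the yeast and 1.47 FPKM in the control library.

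The other 3 of the 5 longest spans overlap each other on Pp02. MSTRG.4110 (12703874 to 12729553, minus strand) and MSTRG.4112 (12707570 to 12732566, minus strand) have introns of 22282 and 22290 bases, and MSTRG.4113 (12714139 to 12737297, plus strand) has 2 introns averaging 11156 bases. With MSTRG.4111, a compact plus-strand locus of 2 exons, MSTRG.4110 and MSTRG.4112 also form the closest group of 3 new spliced loci, in 28693 bases. All 4 lie inside LOC18787954, a protein-coding RefSeq gene that also holds 2 annotated genes. MSTRG.4113 was the most abundant, with 21.0 FPKM in the yeast library and 20.3 FPKM in the control library. In the yeast library MSTRG.4112 had 3.32 FPKM, MSTRG.4110 had 1.93 FPKM and MSTRG.4111 had 1.34 FPKM, against 3.12, 1.94 and 1.20 FPKM in the control library. None of the 4 differed by more than 0.10 on the log2(FPKM + 1) scale.

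The loci lay mostly near annotated genes, in all 4 possible arrangements. For 293 of them an annotated gene exists on the same sequence, with a median of 1636 bases between, quartiles of 454 and 3968 bases, and 25 loci at 10000 bases or more. The nearest gene was on the same strand for 148 loci, of which 75 lay downstream of it and 73 upstream. It was on the opposite strand for 145, tail to tail for 78 and head to head for 67. Of the 21 loci under 100 bases from a gene, 13 were tail to tail, 6 head to head, 1 downstream on the same strand and 1 upstream on it. Under 1000 bases the 112 loci were more evenly spread, with 28 tail to tail, 29 head to head, 33 downstream and 22 upstream.

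**Figure D3:**
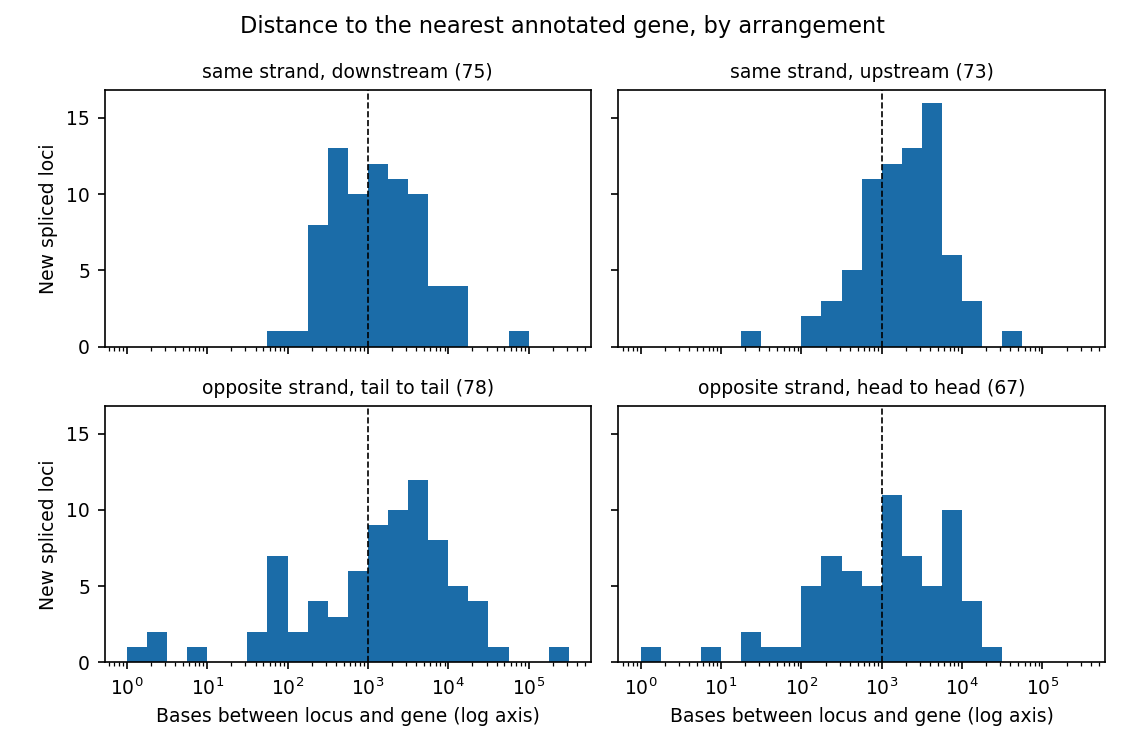
Number of new spliced loci by bases between the locus and the nearest annotated gene (log axis, gaps of 0 drawn at 1, dashed line at 1000 bases), in 1 panel per arrangement with its number of loci. Gaps under 100 bases are found mainly in the opposite-strand panels, 19 of 21 loci, and the median over all panels is 1636 bases.

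Both the closest and the most remote loci included well measured ones. MSTRG.1355 on Pp01 (25054459 to 25056394, plus strand) directly adjoins Prupe.1G236400 tail to tail, and had 4.63 FPKM in the yeast and 4.21 FPKM in the control library. MSTRG.6281 on Pp03 (10701482 to 10703466, minus strand) adjoins Prupe.3G120900 head to head. It had 11.4 FPKM with the yeast and 10.1 FPKM in the control, while that gene had 1.22 FPKM with the yeast and 1.20 FPKM in the control. MSTRG.13264 on Pp07 (12507776 to 12510781) is 3 bases from Prupe.7G092500, as is MSTRG.5291 on Pp02 from Prupe.2G288700. Among the most remote, MSTRG.11480 on Pp06 (15235184 to 15238540, minus strand, 62772 bases away) had 16.1 FPKM in the yeast and 13.6 FPKM in the control library. MSTRG.4052 on Pp02 (10178599 to 10181146, minus strand, 54735 bases away) had 10.3 FPKM with the yeast and 10.5 FPKM in the control. Both of these have 5 exons and lie wholly inside long non-coding RNA genes of RefSeq, LOC18779608 and LOC109947651.

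The level of a locus and that of its neighbour were compared across loci. For 149 loci the nearest annotated gene reached 1 FPKM in at least 1 library, and Spearman's rho across these loci was 0.05 for the mean level and 0.08 for the difference between libraries. Over the 62 of them under 1000 bases it was 0.17 for the level and 0.13 for the difference. By arrangement, these 62 gave mixed signs for the level, with 0.19 head to head (22 loci), 0.39 tail to tail (14), 0.50 downstream on the same strand (14) and -0.32 upstream (12). For the difference the values were 0.11, 0.39, -0.25 and 0.23 in the same arrangements. These values describe pairs measured in the same 2 libraries and carry no test. Per pseudomolecule, the loci numbered from 7.65 per 1000 annotated genes on Pp01 (45 loci) to 16.1 on Pp02 (53 loci).

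Levels were low. The median was 3.19 FPKM in the yeast library and 2.46 FPKM in the control library, with upper quartiles of 6.95 FPKM (yeast) and 6.55 FPKM (control). Annotated genes that reached 1 FPKM had medians of 10.7 FPKM (yeast) and 10.6 FPKM (control). All 296 loci reached 1 FPKM in at least 1 library. As nearly all new loci do, the share says nothing about these. In 255 loci both libraries reached it, in 25 the yeast library alone and in 16 the control library alone. Together the loci made up 0.434% of all FPKM of the gene table in the yeast library and 0.420% in the control library. Loci with more exons were more abundant, with medians of 2.04 FPKM (yeast) and 1.76 FPKM (control) at 2 exons, 3.70 FPKM (yeast) and 3.65 FPKM (control) at 3 to 4 exons, and 6.20 FPKM (yeast) and 5.73 FPKM (control) at 5 or more. Loci over long non-coding RNA genes had medians of 3.46 FPKM (yeast) and 3.16 FPKM (control). The medians were 3.36 FPKM (yeast) and 2.59 FPKM (control) over protein-coding genes, and 1.98 FPKM (yeast) and 1.76 FPKM (control) with no RefSeq gene.

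A small number of loci were well expressed. The 10 most abundant held 39.1% of the summed FPKM of the 296 in the yeast library and 42.0% in the control library. Of these 10, 6 overlap long non-coding RNA genes of RefSeq and 4 protein-coding genes. In the plot of levels by locus, 6 of the 10 have touching or overlapping points for the yeast and the control library, and MSTRG.9050, MSTRG.4859, MSTRG.8220 and MSTRG.5684 are the ones with visible gaps.

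MSTRG.8220 was the most abundant locus, a 2-exon transcript of 407 bases on the minus strand of Pp04 from 8201266 to 8201851. It had 293 FPKM in the yeast library and 400.1 FPKM in the control library, estimated at 3001 fragments with the yeast and 4363 in the control. The ratio was 0.73, and its exact 95% interval for counting error ran from 0.70 to 0.77. Both of its ends lie within 50 bases of those of LOC18780652, a long non-coding RNA gene. With 30 bases between, it stands head to head with Prupe.4G143100 (8201882 to 8204514, 5 exons), which had 5.83 FPKM in the yeast and 5.92 FPKM in the control library. The locus was thus many times more abundant than the annotated gene beside it, in either library.

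MSTRG.5684 followed, with 3 exons on the minus strand of Pp03 from 894410 to 895885, inside the protein-coding RefSeq gene LOC109947911. It had 239 FPKM in the yeast and 182 FPKM in the control library, a ratio of 1.31 (counting interval 1.26 to 1.36). On the opposite strand it is overlapped by transcripts of MSTRG.5677, which the tables name after an annotated gene. The longer of those that span it (790661 to 896029, 3 exons, 396 bases) had 24.4 FPKM in the yeast and 7.58 FPKM in the control library, and the shorter (886393 to 895929, 2 exons) had 1.96 FPKM with the yeast and 6.67 FPKM in the control. How far reads were divided between the strands here was not tested.

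MSTRG.9050, of 3 exons and 519 bases on the plus strand of Pp05 from 831533 to 833858, covers most of the long non-coding RNA gene LOC109949089. It had 93.6 FPKM in the yeast library and 59.7 FPKM in the control library. The ratio of 1.57 had a counting interval from 1.43 to 1.71. Prupe.5G007700, the nearest annotated gene, was listed at 0 in both libraries. MSTRG.4859, of 4 exons at 24806683 to 24808495 of Pp02 (minus strand), matches the protein-coding gene LOC18786076 over 94.97% of that gene. Here the yeast library was the lower one, with 40.6 FPKM against 64.4 FPKM in the control library, a ratio of 0.63 (0.58 to 0.69). Prupe.2G219100, 832 bases away, was also listed at 0 in both.

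The other 6 differed little between the libraries. MSTRG.6441 (Pp03, 16706233 to 16708710, 5 exons) had 66.0 FPKM in the yeast and 67.0 FPKM in the control library. MSTRG.2012 (Pp01, 32097402 to 32104620, 4 exons) had 54.2 FPKM with the yeast and 56.2 FPKM in the control, and MSTRG.11317 (Pp06, 11072469 to 11074109, 5 exons) had 49.4 FPKM with the yeast and 50.5 FPKM in the control. All 3 lie wholly inside long non-coding RNA genes of RefSeq. MSTRG.11624 (Pp06, 19556481 to 19559826, 8 exons), partly over another such gene, had 46.7 FPKM in the yeast and 41.7 FPKM in the control library. MSTRG.14510 (Pp08, 2176951 to 2179026, 4 exons) had 51.9 FPKM with the yeast and 53.6 FPKM in the control, and MSTRG.12195 (Pp06, 26663788 to 26671089, 4 exons) had 43.3 FPKM with the yeast and 43.4 FPKM in the control. The last 2 each lie inside a longer protein-coding RefSeq gene that also holds annotated genes.

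**Figure D4:**
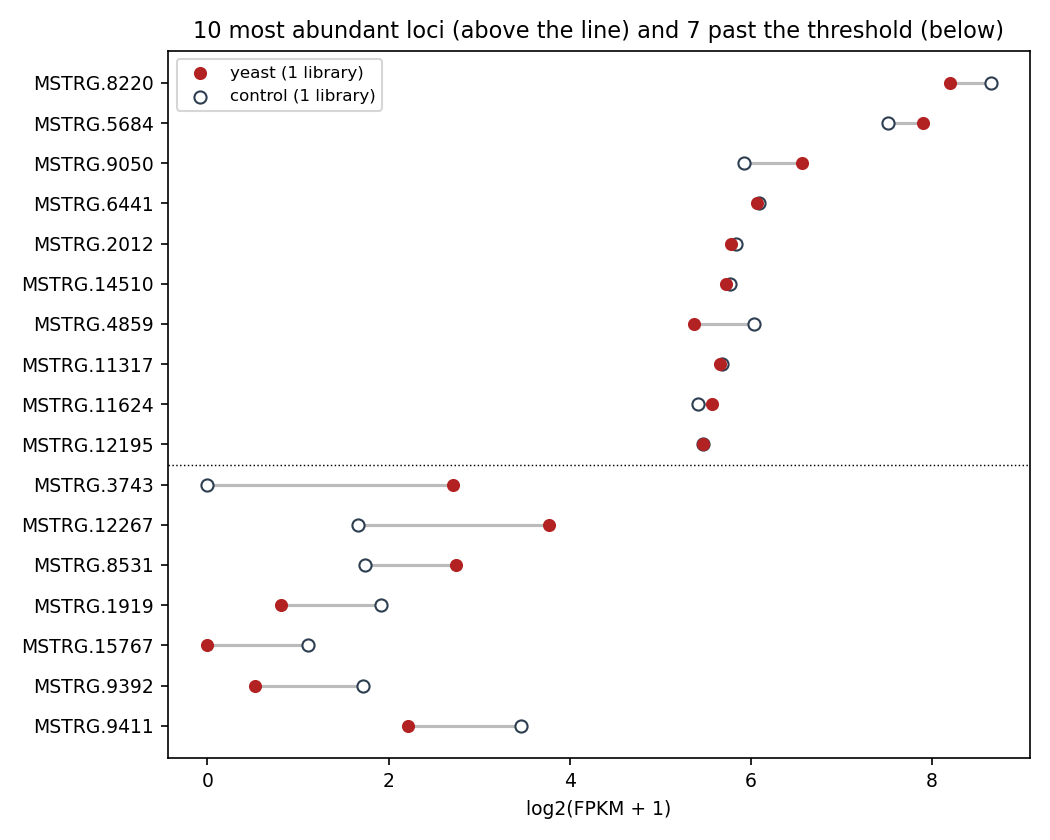
Level as log2(FPKM + 1) in the yeast library (filled red) and the control library (open), 1 library each, for the 10 most abundant new spliced loci above the dotted line and the 7 past a difference of 1 below it. Among the 10, the differences run from -0.65 to 0.64, and the 7 below the line all lie under 4 on this axis.

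The comparison of the treatments asked which loci differed with the yeast. Of the 296 loci, 3 were higher in the yeast library by 1 or more on the log2(FPKM + 1) scale (1.01%), where 1.61% of all 15197 gene rows at 1 FPKM or more and 1.45% of the annotated ones among them were. Lower by as much were 4 loci (1.35%), where 1.70% of all rows and 1.58% of annotated rows were. Both shares are near the background and show nothing about the loci as a class. The counts depend on the pseudocount, and adding 0.1 to the FPKM gave 20 higher and 10 lower loci, and adding 5 gave 2 higher and 0 lower. Adding 0.1 put 6.76% of the loci on the higher and 3.38% on the lower side, where 3.23% and 2.94% of all rows were. Adding 5 put 0.676% of the loci and 0.572% of all rows on the higher side, and 0.572% of all rows on the lower. Both comparisons leave aside that the loci are less abundant than other rows. In 237 loci (80.1%) the difference was under 0.5 in size, compared with 86.8% of all rows. The new spliced loci that overlap annotated transcripts had 13 higher and 10 lower of 190, and the single-exon new loci outside genes had 19 higher and 15 lower of 427. With 1 library per treatment, a difference between treatments cannot be told apart from one between fruit, and in bulk tissue fewer cells of a type cannot be told apart from less RNA per cell.

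**Figure D5:**
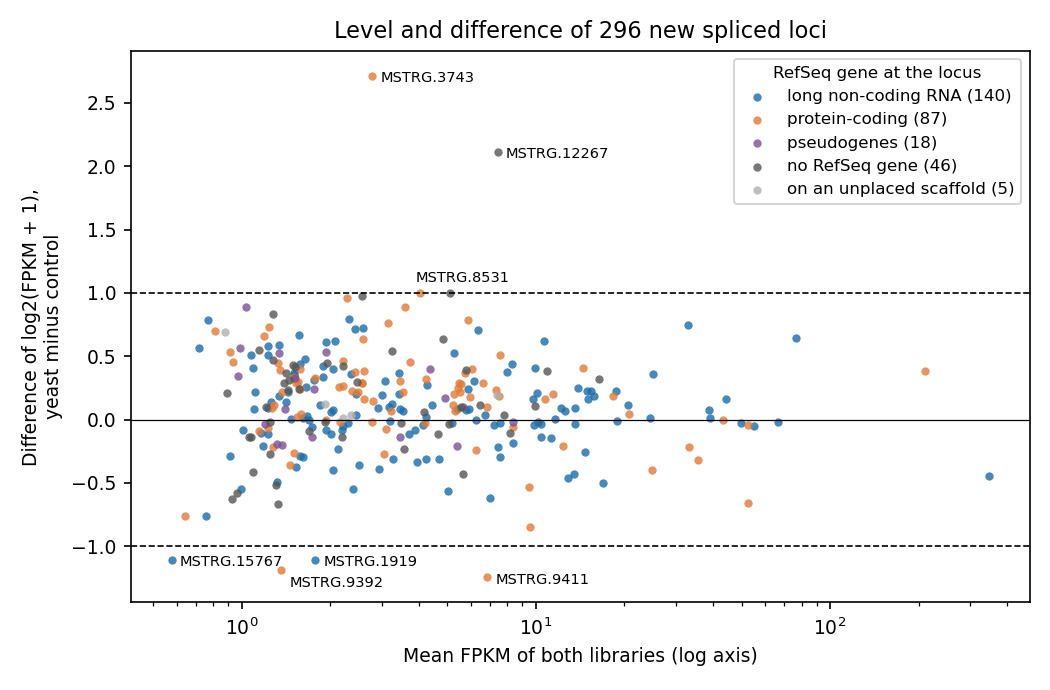
Difference of log2(FPKM + 1), yeast minus control, against the mean FPKM of both libraries (log axis) for each of the 296 new spliced loci, coloured by the class of RefSeq gene with the longest overlap. Dashed lines mark a difference of 1, past which 3 loci are higher and 4 lower in the yeast library. The 20 loci with a mean of 20 FPKM or more all lie between the lines.

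Of the 7 loci past the threshold, MSTRG.12267 rested on the most fragments. It has 4 exons and 3323 bases on the plus strand of Pp06 from 27354393 to 27359552, in a stretch where RefSeq has no gene. Its level was 12.7 FPKM in the yeast library against 2.16 FPKM in the control library, about 1057 fragments with the yeast and 193 in the control. The difference was 2.11 and the ratio 5.85 (counting interval 5.01 to 6.85). The nearest annotated gene, Prupe.6G301400, lies 5951 bases away on the same strand and was listed at 0 in both libraries.

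MSTRG.3743 had the largest difference on this scale, 2.71, whose size rests on the pseudocount because the control value is 0. It was 5.82 with a pseudocount of 0.1 and 1.08 with a pseudocount of 5, where MSTRG.12267 had the larger one, 1.30. This locus of 2 exons and 394 bases, at 1869179 to 1870529 of Pp02 (plus strand), had 5.56 FPKM in the yeast library (about 55 fragments) and was listed at 0 in the control library. It lies within the minus-strand transcripts of MSTRG.3741 (1863801 to 1874518), which the tables name after Prupe.2G019100. Those 3 transcripts had 4.31, 2.50 and 0 FPKM in the yeast library, and 2.72, 2.94 and 0.403 FPKM in the control library. The part that division of reads between the overlapping strands has in the 0 was not tested. MSTRG.15767, described below, was the only other locus of the 296 listed at 0 in either library.

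MSTRG.8531 was the third higher locus, at the threshold. With 3 exons on the minus strand of Pp04 from 12563420 to 12565808, it lies inside LOC18780408, a protein-coding RefSeq gene of which it covers 89.8%. It had 5.71 FPKM in the yeast library and 2.35 FPKM in the control library, a difference of 1.002 and a ratio of 2.43 (counting interval 1.73 to 3.40). Under upper quartile or trimmed mean scaling it fell short of the threshold. Just under the threshold stood MSTRG.11830 at 0.999, MSTRG.4590 at 0.98 and MSTRG.5249 at 0.96. The number of 3 higher loci is therefore set by small amounts.

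Of the 4 lower loci, MSTRG.9411 was the most abundant. It has 2 exons on the minus strand of Pp05 from 7876896 to 7884328, with an intron of 6319 bases, and had 3.65 FPKM in the yeast library against 10.03 FPKM in the control library. The ratio was 0.36, with a counting interval of 0.29 to 0.46. MSTRG.9412 covers nearly the same bases on the plus strand, from 7876896 to 7884324 with an intron of the same 6319 bases, and was also lower with the yeast, at 6.53 FPKM against 12.5 FPKM in the control library, a difference of -0.85. Both enclose the protein-coding RefSeq gene LOC109949326. As the pair shares its span on both strands, the values are not separate measurements if strand was not kept.

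The other 3 lower loci were weakly expressed in both libraries. MSTRG.9392 (Pp05, 6576832 to 6578699, plus strand, 2 exons) had 0.442 FPKM in the yeast and 2.28 FPKM in the control library, a ratio of 0.19 (counting interval 0.097 to 0.35). MSTRG.1919 (Pp01, 31225830 to 31227611, plus strand, 6 exons), which covers 91.2% of the long non-coding RNA gene LOC109949157, had 0.760 FPKM with the yeast and 2.79 FPKM in the control, a ratio of 0.27 (0.14 to 0.48). MSTRG.15767 (Pp08, 21469053 to 21469522, minus strand, 2 exons), inside the long non-coding RNA gene LOC109950762, was listed at 0 in the yeast library and had 1.16 FPKM in the control library, from about 11 fragments. The annotated genes nearest to MSTRG.12267 and MSTRG.15767 were listed at 0 in both libraries. That nearest to MSTRG.9392, Prupe.5G060800, had 0.332 FPKM with the yeast and 0.109 FPKM in the control. At such levels a difference of 1 on this scale could not be reached. Those nearest to the other 4 loci past the threshold differed by less than 1.

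Below the threshold, most of the next loci on the higher side had counting intervals that leave out a ratio of 1. The loci were ranked on the same values, so these intervals give no separate support, and they cover no variation between fruit. MSTRG.11830, on the minus strand of Pp06 from 23120194 to 23124320, had 7.11 FPKM in the yeast and 3.06 FPKM in the control library, a ratio of 2.32 (2.04 to 2.65). Its single-exon transcript held 73.2% of the locus in the yeast and 81.3% in the control library. The 2-exon transcript of this locus had 1.94 FPKM with the yeast and 0.582 FPKM in the control. MSTRG.4590 on Pp02 (22086450 to 22088392, plus strand) had 3.74 FPKM with the yeast and 1.40 FPKM in the control, a ratio of 2.66 (2.00 to 3.55). Neither has a RefSeq gene. MSTRG.5249, an 8-exon locus on Pp02 from 27963197 to 27965336 that covers 81.2% of the protein-coding gene LOC109947509, had 3.33 FPKM in the yeast and 1.22 FPKM in the control library. MSTRG.295 (Pp01, 3609448 to 3611562) had 4.95 FPKM with the yeast and 2.22 FPKM in the control, and MSTRG.3905 (Pp02, 5489241 to 5491984), over the long non-coding RNA gene LOC109947582, had 3.19 FPKM with the yeast and 1.42 FPKM in the control. For MSTRG.8749 (Pp04, 1.64 FPKM with the yeast and 0.424 FPKM in the control) and MSTRG.3781 (Pp02, 1.92 FPKM with the yeast and 0.639 FPKM in the control), intervals are wide. They rest on 14 and 12 fragments in the yeast library and on 4 each in the control library, and for MSTRG.3781 the interval includes a ratio of 1 (0.97 to 13.6).

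On the lower side the next loci were small, apart from MSTRG.9412 and MSTRG.4859. MSTRG.14503 (Pp08, 1973353 to 1974870), over the long non-coding RNA gene LOC109950700, had 0.306 FPKM in the yeast and 1.21 FPKM in the control library. MSTRG.10416 (Pp05, 17716549 to 17717019) had 0.218 FPKM with the yeast and 1.06 FPKM in the control, MSTRG.4116 (Pp02, 13012132 to 13012598) had 0.803 FPKM with the yeast and 1.86 FPKM in the control, and MSTRG.11373 (Pp06, 12254123 to 12257943) had 0.514 FPKM with the yeast and 1.34 FPKM in the control. Each of these 4 rested on at most 22 fragments in either library, and the counting intervals of MSTRG.10416 and MSTRG.4116 include a ratio of 1.

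As a group the loci stood slightly higher in the yeast library than in the control library. The loci share these libraries and are not replicates of the treatment, so the shift cannot be told apart from a difference between fruit. The median difference was 0.11 over the 296 loci, compared with 0.02 over all 15197 rows. It was 0.083 under upper quartile scaling and 0.092 under trimmed mean scaling, for which the median of all rows was not computed. Without scaling, 189 loci (63.9%) were above their control value, compared with 53.3% of all rows. The single-exon new loci outside genes had a median of 0.12 (257 of 427 above their control value) and the spliced new loci overlapping annotated transcripts 0.07. The size went with level. Below a mean of 5 FPKM the median was 0.14 over 190 loci, at 5 to 20 FPKM 0.10 over 86, and from 20 FPKM 0.01 over 20. Annotated genes in the same ranges had medians of 0.04, 0.04 and -0.02. By RefSeq class the median was 0.21 over the 87 loci at protein-coding genes (62 above their control value), 0.07 over the 140 at long non-coding RNA genes (83 above) and 0.11 over the 46 with no RefSeq gene (28 above). Where the RefSeq gene also held an annotated gene, it was 0.21 over 40 loci.

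Most loci with several transcripts kept the same leading one. Of 296 loci, 225 have 1 transcript and 71 have 2 to 4. In 12 of the 71 the leading transcript in the yeast library was not that of the control library, and the largest move in share had a median of 8.73 percentage points. A share moved by 20 points or more in 14 loci and by 50 or more in 1. Among the 36 loci at 5 FPKM or more in both libraries, the leading transcript differed in 3 and no share (0) moved by 50 points.

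MSTRG.1345 had the largest exchange, chosen here after its values were seen. This locus lies at 24873957 to 24877693 of Pp01 (minus strand), over the long non-coding RNA gene LOC109946535, and had 3.99 FPKM in the yeast and 2.85 FPKM in the control library. Its transcript of 769 bases made up 90.3% of the locus in the yeast library and 36.7% in the control library, and a transcript of 631 bases the rest. At MSTRG.7690 (Pp04, 2176771 to 2180228, over the pseudogene LOC109949007), chosen in the same way, the 4-exon transcript held 89.8% in the yeast and 44.4% in the control library, while the locus total was 5.87 FPKM with the yeast and 5.41 FPKM in the control. The 3 loci with the most transcripts, 4 each, were MSTRG.4109, MSTRG.5291 and MSTRG.6077. The leading transcript of MSTRG.4109 held 67.8% with the yeast and 67.4% in the control, and that of MSTRG.6077, a 7-exon locus on Pp03 from 5983483 to 5991094, held 62.4% with the yeast and 59.0% in the control. MSTRG.5291, at 28358865 to 28361000 of Pp02 (minus strand), differed more in its total, with 4.20 FPKM in the yeast and 2.07 FPKM in the control library, and its leading transcript was not the same. A 2-exon transcript of 1931 bases led with 40.2% in the yeast library and held 31.2% in the control library. A 2-exon transcript of 611 bases held 11.5% in the yeast library and led with 31.4% in the control library.

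In 10 loci an unspliced transcript was listed beside the spliced one. The single-exon transcripts held between 21.9% and 96.5% of the locus in the yeast library, with a median of 55.5%, and between 20.6% and 86.4% in the control library, with a median of 58.9%. The division of reads among transcripts is the authors' estimate, and its error is not known from 1 library per treatment.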

How the data were processed

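RNA from peach wound tissue was sequenced in 2 libraries, 1 per treatment. The authors deposited FPKM in a gene table and in a transcript table per library. Coverage, the mean depth over a transcript, was deposited in the transcript tables. The submitters' processing notes list HISAT2 and HTSeq 0.6.1 without their roles. Assembler, build and strand protocol are not given in the sources. Gene values of all 296 loci equalled transcript FPKM times length, summed, over a whole number of bases (tolerance 0.05), so they are not whole read counts.

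Analysis used Python 3.11.15, pandas 2.3.3 and SciPy 1.17.1. Differences are log2(FPKM + 1), yeast minus control, for rows at 1 FPKM or more in at least 1 library, and understate changes of low loci. Coverage over FPKM gave 7.54 gigabases for the yeast and 8.04 for the control library. Taking 300 bases as 1 fragment, the commonest product of coverage and length among barely covered transcripts, these are about 25100000 and 26800000 fragments. Intervals are exact (Clopper-Pearson, 95%) and cover counting error only. Spans were compared with the RefSeq gene table of Prunus_persica_NCBIv2 by position, and for names and biotypes only. No identifier list by product name applies to these loci. The calculations were tested on simulated data.

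Members, lists and tests were chosen with earlier results of these data known. Named loci follow a rule of rank: level, difference, exons, span, transcripts, distance and closest group, with exceptions stated. Alternatives covered pseudocount, filter, scaling, transcript sums and the definition of a locus.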

Additional observations from a re-analysis of the deposited data

How the results depend on the processing

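The counts of 3 higher and 4 lower loci depended on the pseudocount. Adding 0.1 instead of 1 to the FPKM gave 20 higher and 10 lower loci, and adding 5 gave 2 and 0 and a median difference of 0.0645. Of all rows, 3.23% were higher and 2.94% lower when adding 0.1, and 0.572% each when adding 5. At a difference of 2 there were 2 higher and 0 lower loci, with 0.263% and 0.349% of all rows. With a filter of 5 FPKM, 3 of 112 loci were higher (2.68%) and 1 was lower (0.893%), with 1.54% and 1.55% of all rows. With 3 exons or more there were 2 higher loci and 1 lower locus. At 1000 bases or more from an annotated transcript 1 higher locus and 3 lower loci were left. With overlap on the other strand allowed there were 15 higher and 13 lower among 472 loci. A changed definition of a locus leaves the shares of all rows at 1.61% higher and 1.70% lower. The number of loci itself was 156 with 3 exons or more and 184 at 1000 bases or more, by construction. Of these 156, 142 met a RefSeq gene and 75 a long non-coding RNA gene, and of the 184, 151 and 90. The causes of the other moves were not tested. Under upper quartile or trimmed mean scaling, there were 2 higher and 4 lower loci, with library factors of 0.03 and 0.02 (log2). The shares of all rows under these scalings were not computed. Without loci opposite another new transcript, chosen after seeing the data like the RefSeq alternatives, there were 2 higher and 3 lower among 271 loci. Of 235 alternative differences of 47 named loci, 24 lay outside the counting interval, all of them at another pseudocount. A pseudocount changes the scale itself, so these 24 say nothing about counting error. A pseudocount cannot turn a direction and the scaling factors are small, so directions are not compared. No paired analysis was possible because only 1 library stands for a treatment. Leaving out a library would leave its treatment without data. In 56 of the 296 loci both libraries had fewer than 30 fragments.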
